A study of Mus musculus with 6 samples.

Results

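The genes described are the E2F transcription factors and their DP dimerisation partners, 10 of the 24062 gene symbols in the deposited table. They were chosen by symbol alone: the activators E2f1, E2f2 and E2f3, the repressors E2f4, E2f5, E2f6, E2f7 and E2f8, and the partners Tfdp1 and Tfdp2. All 10 had counts in every library and passed the filter on low counts. RNA was sequenced from mouse embryonic fibroblasts of the C57BL/6 strain, connective tissue cells grown from embryos, at day 10. In 3 libraries the cells had been given p27 by lentivirus (p27OE), and 3 libraries were labelled EV control. The titles of the p27OE samples call those cells senescent, whereas the series design text calls the cells non-senescent, and only EV control titles bear a dataset tag. The promoter of the virus, the share of cells that carried it and the number of embryos behind a library are not given in the sources used here, and the labels do not say that libraries of a group came from separate cultures.

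E2F proteins bind DNA at the promoters of genes needed for DNA synthesis and division. E2F1 to E2F6 bind as heterodimers with a DP protein, while the atypical members E2F7 and E2F8 carry a doubled DNA-binding domain and need no DP. In resting cells pocket proteins of the retinoblastoma family hold E2F complexes in a repressive state. Cyclin-dependent kinases phosphorylate the pocket proteins and release the activators, and p27, the product of Cdkn1b, inhibits those kinases. Several E2F genes are themselves E2F targets, so the level of their mRNA is also a readout of the pathway.

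Promoter sequences are shown for 4 members that hold an E2F or cell cycle word and whose values contrast: E2f7 and E2f8, the repressors with the lowest fold changes, E2f3, an activator whose groups overlapped, and E2f2, the activator with the lowest fold change. Capitals mark matches, on either strand, to an E2F word (TTTCCCGC, TTTGGCGC, TTTCGCGC or TTTGCCGC), to the cell cycle homology region word (TTTGAA) and to CCAAT. The first 3 are the 250 bases before the RNA start, and the last is a stretch of 22 bases within the 50 that follow it, all 5′ to 3′ on the gene's strand, from RefSeq on GRCm38.p6.
E2f7, chr10:110745189-110745438, plus strand: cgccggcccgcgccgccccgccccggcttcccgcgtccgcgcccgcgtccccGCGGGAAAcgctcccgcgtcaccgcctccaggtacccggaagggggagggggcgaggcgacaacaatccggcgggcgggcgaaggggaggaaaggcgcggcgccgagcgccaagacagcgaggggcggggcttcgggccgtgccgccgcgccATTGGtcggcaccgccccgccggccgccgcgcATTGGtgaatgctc
E2f8, chr7:48881597-48881846, minus strand: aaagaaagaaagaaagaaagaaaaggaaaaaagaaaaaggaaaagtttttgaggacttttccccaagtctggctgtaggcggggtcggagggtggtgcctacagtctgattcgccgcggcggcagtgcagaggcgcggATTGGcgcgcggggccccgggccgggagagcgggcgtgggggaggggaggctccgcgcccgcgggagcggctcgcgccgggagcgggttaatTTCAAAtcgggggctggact
E2f3, chr13:29986064-29986313, minus strand: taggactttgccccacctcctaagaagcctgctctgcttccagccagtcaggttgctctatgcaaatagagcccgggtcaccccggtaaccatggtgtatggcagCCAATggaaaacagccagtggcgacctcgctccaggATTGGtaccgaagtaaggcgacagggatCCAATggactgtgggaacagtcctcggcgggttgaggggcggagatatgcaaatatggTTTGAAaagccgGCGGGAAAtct
E2f2, chr4:136172302-136172323, plus strand: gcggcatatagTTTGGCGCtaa

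The E2F word lay 198 to 191 bases before the RNA start in E2f7 and 11 to 4 bases before it in E2f3, where a cell cycle homology word preceded it at 23 to 18 bases. In E2f2 the word lay 40 to 47 bases after the RefSeq start, but before the gene start in GENCODE M21 (136172394). E2f8 held the cell cycle homology word, 20 to 15 bases before the start, and no E2F word in this window. Of the 8 members with a RefSeq window of 300 bases (250 before and 50 after the start), E2f2, E2f3, E2f7 and Tfdp1 held an E2F word in at least 1 window, and E2f1, E2f6, E2f8 and Tfdp2 in none. A further E2f2 window held the cell cycle homology word and no E2F word. The E2f1 window, up to 154569676, and the Tfdp2 windows, from 96258455, lay inside the GENCODE M21 genes, which begin at 154569892 and 96196275. Bases before those GENCODE starts were not searched. Among all 32851 windows, 2.26% held an E2F word, 17.9% the cell cycle homology word and 37.4% CCAAT. No marked words overlapped each other. The words thus occurred both in genes that were lower in every p27OE library and in E2f3, whose groups overlapped.

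Library totals ran from 39183624 to 61219345 counts, and levels are given as CPM, counts scaled to the size of the library with TMM factors. The label of the treated group was checked first. Cdkn1b was at 43.9, 31.5 and 32.3 CPM in EV control 1, 2 and 3 and at 167, 232 and 337 CPM in p27OE 1, 2 and 3. On the log2 scale it rose by 2.77 ± 0.29 (SE; edgeR adjusted p = 0.028), and transcripts of the introduced gene count together with the cell's own. Leaving out EV control 1 kept the call (edgeR adjusted p = 0.0201), and leaving out any of the other 5 libraries ended it (edgeR adjusted p up to 0.189). Libraries stood apart within groups: the summed Y-linked level (Ddx3y, Eif2s3y, Kdm5d and Uty) was 0.125 and 1.95 CPM in EV control 1 and p27OE 1, 57.1 CPM in p27OE 2 and 124.4 to 137.3 CPM in the other 3 libraries. Each member is therefore given with all libraries and without EV control 1 or both libraries numbered 1. Within p27OE, the library order by Cdkn1b was the same as by the Y-linked level, so these 2 properties cannot be told apart. Summed fibroblast markers (10 genes) were at 31073 to 50352 CPM in all libraries. In EV control and p27OE respectively, 7 endothelial markers summed to 3.32 to 3.93 and 4.30 to 7.73 CPM with Cldn5 at 0, and 7 epithelial markers to 2.0 to 4.52 and 3.98 to 8.24 CPM. Of the muscle markers (39.3 to 124.1 and 78.2 to 312.4 CPM), nearly all was Des and Acta1 with Ckm at 0, and of the neural markers (119.2 to 254.3 and 104.2 to 298.8 CPM), Nes and Tubb3.

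In p27OE cells the atypical repressors E2f7 and E2f8, the activator E2f2 and the pocket protein partner E2f4 had lower transcript levels in every library than in any EV control library, while E2f1 and E2f3 overlapped between the groups. None of the 10 members passed with the group as the only term (edgeR, adjusted p under 0.05), where 2.61% of the 13990 genes tested did. Of the members, 7 had a fold change below 0 in log2, as did 48.2% of all genes. At an unadjusted p under 0.05 there were 5 members, against 26.0% of all genes. The same 5 did not overlap between the groups and were lower in p27OE, against 16.5% of all genes, and 0 members were higher without overlap, against 16.8%. Without EV control 1, E2f4, E2f8 and Tfdp1 fell, 3 of 10 members where 6.75% of genes did, and without both libraries numbered 1 the same 3 fell where 8.9% did. DESeq2 called 1 member, E2f8 (8.41% of all genes were called lower by it), and limma-voom called 0. A further fit, called Y-adjusted here, had a term for that Y-linked level beside the group. In it E2f2, E2f4, E2f7 and E2f8 fell and E2f6 rose, so 4 of 10 members were called lower where 16.0% of all genes were, and 1 of 10 higher where 18.0% of all genes were. Across the activators the median log2 fold change was −0.05 and across the repressors −0.33, beside 0.01 over all genes. Neither class moved as a block, since E2f2 stood far from E2f1 and E2f3, and E2f6 lay on the other side of 0 from the other repressors.

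**Figure D1:**
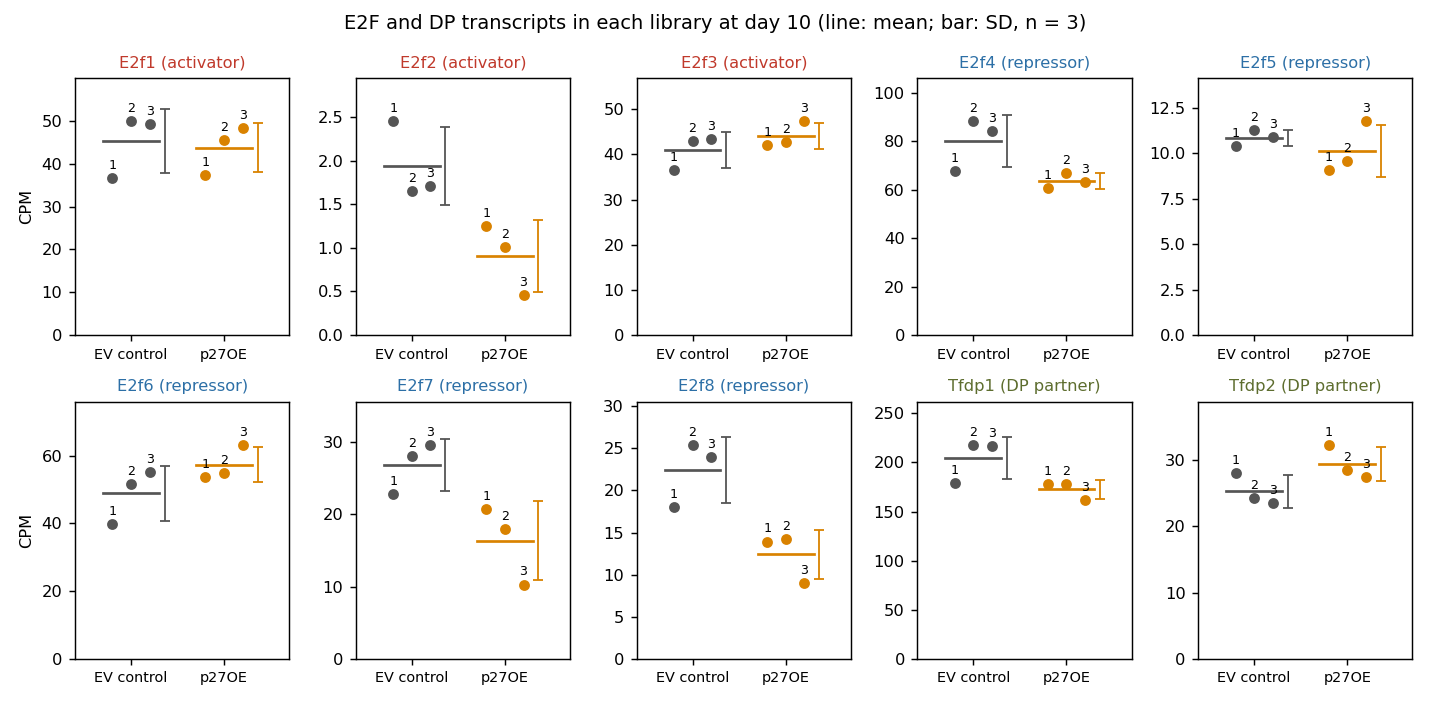
CPM of each member (y axis, from 0, own scale per gene) in the 3 EV control and 3 p27OE libraries, numbered by replicate. Lines are group means and bars are SD (n = 3). E2f2, E2f4, E2f7, E2f8 and Tfdp1 do not overlap between the groups, E2f4 and Tfdp1 only narrowly, whereas E2f1, E2f3, E2f5, E2f6 and Tfdp2 do.

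E2f1 is the activator most closely tied to entry into DNA synthesis, and also to apoptosis (chromosome 2, 154559407 to 154569892, minus strand, GENCODE M21 on GRCm38). Its level was 36.7, 49.9 and 49.2 CPM in EV control 1, 2 and 3 and 37.4, 45.5 and 48.3 CPM in p27OE 1, 2 and 3. The libraries numbered 1 were lowest in both groups, and the groups overlapped almost fully. The fold change, in log2, was −0.05 ± 0.15 (SE; edgeR adjusted p = 0.862), and 0.01 ± 0.06 in the Y-adjusted fit (edgeR adjusted p = 0.908). Without both libraries numbered 1 it was −0.10 ± 0.07. Its sign also changed when EV control 2, EV control 3 or p27OE 1 was left out, within a range of −0.20 to 0.03.

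E2f3 encodes an activator with a long and a short isoform made from separate promoters, which gene counts do not separate (chromosome 13, 29906575 to 29986063, minus strand). It was at 36.5, 43.0 and 43.5 CPM in EV control and at 42.0, 42.7 and 47.3 CPM in p27OE. Only EV control 1 lay below all p27OE libraries. The log2 fold change of 0.10 ± 0.10 (SE) did not pass (edgeR adjusted p = 0.544), nor did 0.14 ± 0.05 in the Y-adjusted fit (edgeR adjusted p = 0.0917). It was 0.01 ± 0.07 without EV control 1, 0.05 ± 0.10 without p27OE 3 and 0.04 ± 0.08 without both libraries numbered 1.

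E2f2, the third activator, was the least abundant member, with 19 to 100 counts per library (chromosome 4, 136172394 to 136196057, plus strand). Its level was 2.45, 1.65 and 1.71 CPM in EV control 1, 2 and 3 and 1.26, 1.0 and 0.457 CPM in p27OE 1, 2 and 3. Every p27OE library lay below every control, with p27OE 3 lowest. The fold change in log2 was −1.09 ± 0.41 (SE; edgeR adjusted p = 0.157), the lowest of the 10, and it passed in the Y-adjusted fit (−1.26 ± 0.25; edgeR adjusted p = 0.009). EV control 1, where E2f2 was highest, also had the highest summed level of 14 macrophage markers, 105.6 CPM against 19.4 to 37.7 CPM in the other 5 libraries. All 14 had counts, and Lyz2 was the most abundant. The part of these cells in the result was not tested. Without EV control 1 the log2 fold change of E2f2 was −0.90 ± 0.44 (SE; edgeR adjusted p = 0.212), and without both libraries numbered 1 it was −1.20 ± 0.42 (edgeR adjusted p = 0.106).

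E2f4 and E2f5 are the repressors that act mainly through pocket proteins in resting cells. E2f4 (chromosome 8, 105297663 to 105305370, plus strand) was at 67.7, 88.2 and 84.0 CPM in EV control 1, 2 and 3 and at 60.7, 67.0 and 63.0 CPM in p27OE 1, 2 and 3. The gap was narrow, since EV control 1 was only just above p27OE 2. The log2 fold change of −0.33 ± 0.11 (SE) did not pass (edgeR adjusted p = 0.126). It passed in the Y-adjusted fit (−0.29 ± 0.08; edgeR adjusted p = 0.025) and without EV control 1 (−0.45 ± 0.07; edgeR adjusted p = 0.0239), but not without any other single library (edgeR adjusted p up to 0.354). E2f5 (chromosome 3, 14578641 to 14606309, plus strand) was at 10.4, 11.3 and 10.9 CPM in EV control and 9.09, 9.56 and 11.8 CPM in p27OE. Its highest library was p27OE 3, and its fold change in log2 was −0.10 ± 0.13 (SE; edgeR adjusted p = 0.675). It was −0.15 ± 0.14 without EV control 1, −0.22 ± 0.11 without p27OE 3 and −0.08 ± 0.14 without both libraries numbered 1, with no call.

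E2f6 encodes a repressor that lacks the pocket protein binding region and works with polycomb proteins (chromosome 12, 16810963 to 16839742, plus strand). It was at 39.9, 51.7 and 55.3 CPM in EV control 1, 2 and 3 and at 53.7, 55.0 and 63.2 CPM in p27OE 1, 2 and 3. The groups overlapped through EV control 3. With the group alone the fold change in log2 was 0.23 ± 0.14 (SE; edgeR adjusted p = 0.347), and in the Y-adjusted fit E2f6 rose, by 0.28 ± 0.07 (edgeR adjusted p = 0.0153). It did not pass without both libraries numbered 1, at 0.13 ± 0.09 (edgeR adjusted p = 0.363), and was 0.08 ± 0.09 without EV control 1 and 0.15 ± 0.15 without p27OE 3.

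E2f7 and E2f8 encode the atypical repressors, which restrain E2F1-driven transcription late in S phase. E2f8 (chromosome 7, 48866429 to 48881596, minus strand) was at 18.0, 25.4 and 24.0 CPM in EV control 1, 2 and 3 and at 13.9, 14.3 and 9.04 CPM in p27OE 1, 2 and 3. All p27OE libraries lay below all controls, and p27OE 3 lay lowest. That is a level 1.81-fold lower in p27OE, with a fold change in log2 of −0.86 ± 0.22 (SE; edgeR adjusted p = 0.0743). E2f8 fell in the Y-adjusted fit (−0.86 ± 0.21; edgeR adjusted p = 0.0182), with DESeq2 (−0.86 ± 0.24; DESeq2 adjusted p = 0.0044), and without EV control 1 (−1.01 ± 0.21; edgeR adjusted p = 0.04), and did not pass without any other single library (edgeR adjusted p up to 0.249).

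E2f7 (chromosome 10, 110745439 to 110787384, plus strand) followed with 22.8, 28.1 and 29.6 CPM in EV control and 20.8, 18.0 and 10.3 CPM in p27OE 1, 2 and 3. EV control 1 and p27OE 1 lay close together across the gap, whereas p27OE 3 was far below. The fold change in log2 was −0.71 ± 0.26 (SE; edgeR adjusted p = 0.149), and −0.79 ± 0.24 in the Y-adjusted fit, where E2f7 fell (edgeR adjusted p = 0.0383). It did not pass without EV control 1 (−0.83 ± 0.29; edgeR adjusted p = 0.116) or without both libraries numbered 1 (−1.04 ± 0.26; edgeR adjusted p = 0.0551). Without p27OE 3 it was −0.47 ± 0.14 (edgeR adjusted p = 0.159). Counts of E2f8 may include reads of an overlapping gene, since 11.2% of its exon bases lie across from exons of Gm2788 on the other strand and the strand setting of the counting was not given. For E2f5 and E2f7 that share was 1.46% and 0.955%, and for the other 7 members it was 0.

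**Figure D2:**
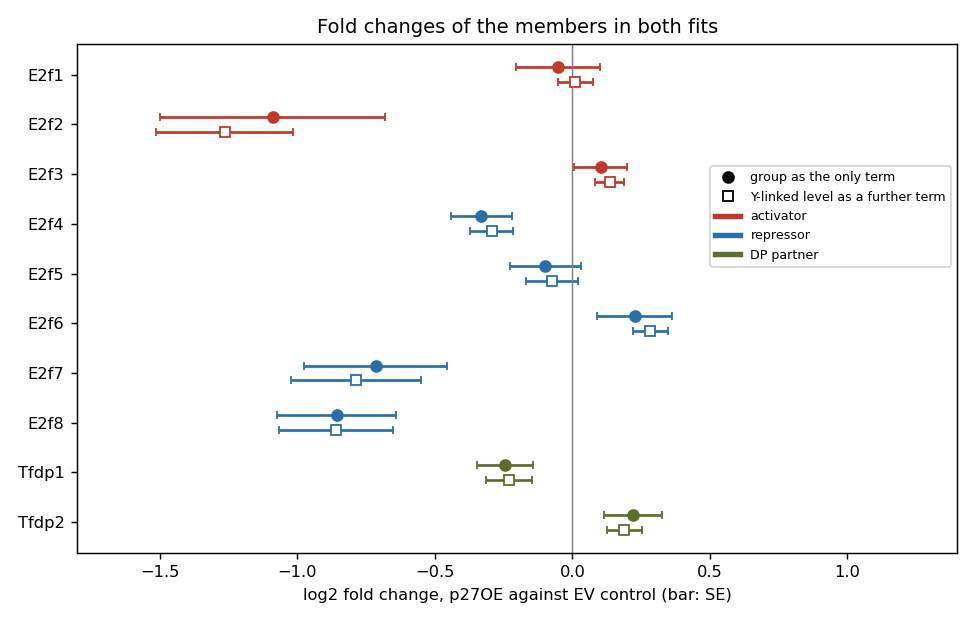
Log2 fold change of each member, p27OE against EV control, with its SE (x axis), from the fit with the group alone (filled circles) and from the Y-adjusted fit (open squares). E2f2, E2f7 and E2f8 lie farthest below 0, E2f1, E2f3 and E2f5 lie near 0, and E2f6 and Tfdp2 lie above it in both fits.

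With the group alone neither DP partner passed. Tfdp1 encodes DP1, the main partner of E2F proteins in most cells (chromosome 8, 13338751 to 13378448, plus strand). It was at 179.5, 217.8 and 216.2 CPM in EV control and 178.2, 178.1 and 161.3 CPM in p27OE. The gap between EV control 1 and p27OE 1 was about 1 CPM wide. Its log2 fold change of −0.25 ± 0.10 (SE) did not pass (edgeR adjusted p = 0.191), nor did −0.23 ± 0.08 in the Y-adjusted fit (edgeR adjusted p = 0.0709). Without EV control 1 it was called at −0.35 ± 0.08 (edgeR adjusted p = 0.0441), and without both libraries numbered 1 at −0.37 ± 0.08 (edgeR adjusted p = 0.0393). Tfdp2, which encodes DP2 (chromosome 9, 96196275 to 96323646, plus strand), was at 28.1, 24.3 and 23.5 CPM in EV control and 32.3, 28.5 and 27.5 CPM in p27OE. Only EV control 1 reached the p27OE range, and the log2 fold change of 0.22 ± 0.11 (SE) did not pass (edgeR adjusted p = 0.245; 0.0533 in the Y-adjusted fit). Without EV control 1 it was 0.29 ± 0.10, without p27OE 1 0.13 ± 0.11 and without both libraries numbered 1 0.21 ± 0.08, with no call.

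Differences between libraries of like Y-linked level showed how far each member depended on the library. Between the low-level libraries, p27OE 1 minus EV control 1, E2f8 differed by −0.37 in log2 CPM, E2f7 by −0.14, E2f4 by −0.16 and Tfdp1 by −0.01. In the high-level ones, p27OE 3 minus the mean of EV control 2 and 3, the same genes differed by −1.45, −1.48, −0.45 and −0.43. These 4 genes were lower in both, Tfdp1 by almost nothing in the first, and the differences were larger in the second. E2f5 was on opposite sides of 0, at −0.19 and 0.09. E2f2 was lower in both, by −0.94 and −1.79, and E2f6 was higher in both, by 0.43 and 0.24. For E2f1 the values were 0.02 and −0.04, and for E2f3 0.20 and 0.13. Mki67, a marker of cycling cells, had differences of −0.59 and −1.49 in the same pairs, lower in both like E2f7 and E2f8. Among the controls, however, Mki67 was highest in EV control 1 (206.2 CPM), where E2f7 and E2f8 were lowest. In bulk RNA, fewer cycling cells and less RNA per cell cannot be told apart. These differences have 1 p27OE library each and no test.

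**Figure D3:**
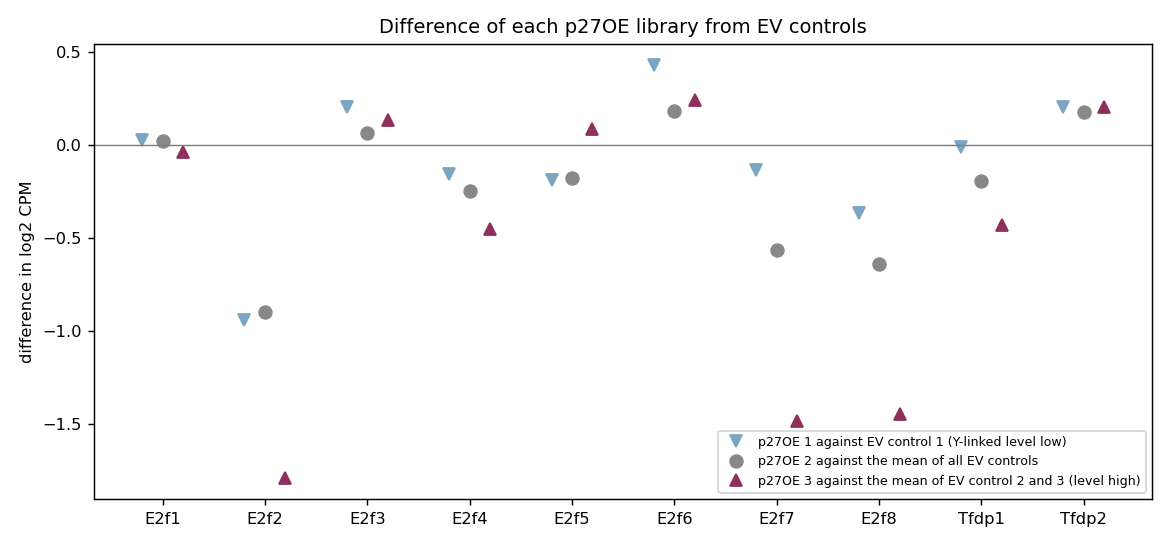
Difference in log2 CPM (y axis) between 1 p27OE library and EV control libraries for each member: p27OE 1 minus EV control 1, p27OE 2 minus the mean of all EV controls, and p27OE 3 minus the mean of EV control 2 and 3. E2f2, E2f7 and E2f8 are lowest in p27OE 3, E2f1 stays within 0.04 of 0 in all 3, and E2f6, E2f3 and Tfdp2 are above 0 in all 3.

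Levels of different genes were compared per length, as TPM over merged exons. In EV control, Tfdp1 was highest at 207.4 ± 14.4 TPM (SD, n = 3), followed by E2f4 at 121.3 ± 12.1, E2f1 at 53.3 ± 6.86, E2f6 at 32.1 ± 4.25 and E2f3 at 28.1 ± 1.65 TPM. Below them lay E2f5 at 22.7 ± 0.300, E2f8 at 15.3 ± 2.15, E2f7 at 11.1 ± 1.10, Tfdp2 at 6.74 ± 0.933 and E2f2 at 1.49 ± 0.405 TPM. Neighbours in that order did not overlap over the 3 control libraries, except E2f6 and E2f3. In p27OE the order kept its first 7 places, and Tfdp2, at 8.03 ± 0.951 TPM, came to overlap with E2f8 at 8.75 ± 2.31 and with E2f7 at 6.99 ± 2.52 TPM. E2F transcripts in these cells were thus mostly E2f4 and E2f1, the former the main E2F of resting cells. With each gene's longest transcript as its length, E2f6 came above E2f1 and Tfdp2 above E2f8 in p27OE.

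The make-up of the E2F transcript pool was compared within each library, where scaling between libraries plays no part. Activators held 29.0%, 28.9% and 29.3% of the summed E2F TPM in the control libraries 1, 2 and 3, against 31.0%, 32.4% and 34.3% in p27OE 1, 2 and 3. The control values were nearly equal although E2f1 itself varied between the controls, and all p27OE values lay above them. E2f7 and E2f8 together held 8.96% to 9.41% of the pool in EV control and 7.60%, 6.64% and 3.98% in p27OE 1, 2 and 3. The share of E2f4 and E2f5 was 49.4% to 51.3% in EV control and 45.9% to 47.0% in p27OE, and that of E2f6 had a mean of 11.2% and 14.9%, both without overlap. The summed activator level itself was 82.9 ± 8.08 TPM in EV control and 84.4 ± 5.56 TPM in p27OE (SD, n = 3). The summed repressor level was 202.6 ± 19.0 and 175.0 ± 6.03 TPM. Unlike the shares, these sums depend on the scaling of each library, and both overlapped between the groups. For the repressors, EV control 1 was at 180.7 TPM, just below p27OE 2 at 181.4 TPM.

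Activators were also set against the atypical repressors. The ratio of E2f1 to E2f8 TPM was 3.52, 3.39 and 3.54 in the control libraries 1, 2 and 3, against 4.63, 5.51 and 9.22 in p27OE 1, 2 and 3. For E2f1 to E2f7 it was 4.60, 5.07 and 4.75 in the controls, against 5.14, 7.21 and 13.4 in p27OE. For E2f3 to E2f8 it was 1.7 to 2.03 in the controls and 3.0 to 5.25 in p27OE. All 3 ratios were higher in each p27OE library than in any control and highest in p27OE 3. That library had both the highest Cdkn1b and the highest Y-linked level, which cannot be told apart. For E2f1 to E2f7, p27OE 1 was only just above EV control 2. E2f7 and E2f8 kept close to each other, at a ratio of CPM of 1.11 to 1.27 in EV control and 1.14 to 1.49 in p27OE. These pool values describe the chosen members and were not tested.

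**Figure D4:**
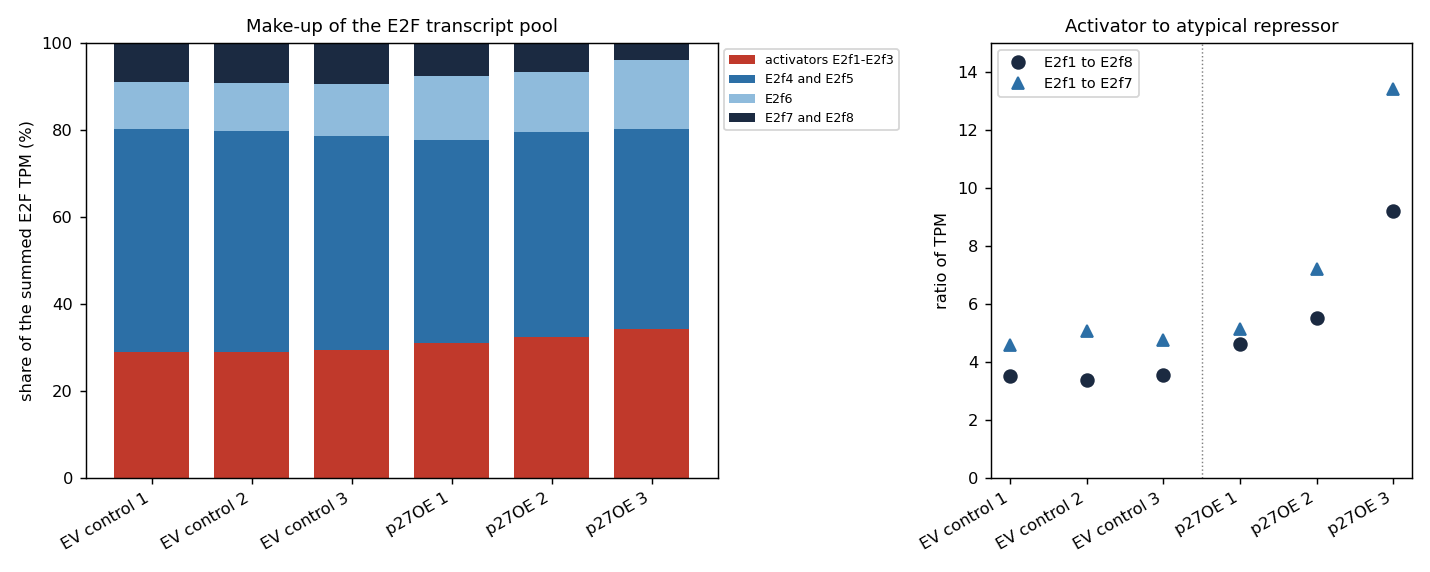
Left, share of the summed E2F TPM in each library (y axis, %, stacked) held by the activators, by E2f4 and E2f5, by E2f6, and by E2f7 and E2f8. Right, ratio of E2f1 to E2f8 (circles) and to E2f7 (triangles) TPM by library. The activator share is 28.9% to 29.3% in the controls and 31.0% to 34.3% in p27OE, and both ratios are highest in p27OE 3.

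The genes with patterns nearest to E2f8 and E2f1 were found by the root-mean-square difference of centred log2 CPM over the 6 libraries, among 10728 genes with a mean of at least 4 CPM. Nearest to E2f8 were Polq, a DNA repair polymerase gene (0.03), Cenpi, a centromere protein gene (0.04), and the mitotic kinase gene Cdk1 (0.04), with E2f7 at 0.14 and E2f1 at 0.51. Cdk1, for example, was at 121.9, 170.3 and 165.8 CPM in EV control 1, 2 and 3 and 100.5, 95.8 and 65.1 CPM in p27OE 1, 2 and 3, the same order of libraries high and low as E2f8 but for p27OE 1 and 2. Nearest to E2f1 were the splicing kinase gene Srpk1 (0.02), Smco4 (0.03) and the AP-1 gene Jun (0.03), with E2f3 at 0.13 and E2f8 at 0.51. Among the members, E2f7 was nearest to E2f8, and E2f3 was nearest to E2f1. The differences were not scaled to a gene's own spread about its mean, which was 0.18 for E2f1 and 0.51 for E2f8. The 0.13 of E2f3 was thus not small beside the spread of E2f1.

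Textbook targets of E2F at the start of S phase were lower in p27OE cells. Below 0 lay 29 of 30 such genes, and the median log2 fold change was −0.65 beside 0.01 over all genes, but 0 passed with the group alone (edgeR, beside 2.61% of all genes), while 24 were at an unadjusted p under 0.05, as were 26.0% of all genes. DESeq2 called 23 lower and 0 higher (8.41% of all genes lower). In the Y-adjusted fit 25 fell and 0 rose (16.0% of all genes fell), and without both libraries numbered 1, 25 fell (8.9% of all genes). The checkpoint kinase gene Chek1 had a log2 fold change of −0.86 ± 0.17, the MYB family gene Mybl2 −1.15 ± 0.24 and the helicase gene Mcm3 −0.64 ± 0.13 (SE), with edgeR adjusted p = 0.0522, 0.0564 and 0.0564. Ccne1, which encodes cyclin E1, was the one gene above 0, at 0.02 ± 0.23. Over the list, the median difference was −0.27 for p27OE 1 minus EV control 1 and −1.11 for p27OE 3 minus EV control 2 and 3. An E2F word stood in a promoter window of 13 of the 24 listed genes that have one, 54.2%, beside 2.6% of all genes with a window. E2f1 and E2f3 thus overlapped between the groups in the same libraries where 24 of 30 target genes were lower without overlap, as were 16.5% of all genes.

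A list of pocket proteins and the MuvB core, some of which form the DREAM repressor of cell cycle genes with E2F4 or E2F5, was split. The list also held Mybl2 and Foxm1, which belong to neither group. Of 10 genes, 2 fell with the group alone, both MuvB subunits: Lin9 (−0.73 ± 0.12, SE; edgeR adjusted p = 0.0441) and Lin54 (−0.61 ± 0.10; edgeR adjusted p = 0.0431), beside 0.843% of all genes. Both were called without EV control 1 and lost without any other single library (edgeR adjusted p up to 0.215). Foxm1, a mitotic transcription factor gene, was at −0.93 ± 0.19 without passing. Among the pocket proteins, Rb1 was at 0.40 ± 0.13, Rbl1 at −0.50 ± 0.17 and Rbl2 at 0.26 ± 0.15 (SE), none passing. In the Y-adjusted fit 6 of the 10 fell, Mybl2 and Foxm1 among them, where 16.0% of all genes did, and 1, Rb1, rose, where 18.0% did.

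The cyclins and kinases that act on pocket proteins went both ways. Ccnd2 and Ccnd1, which encode D-type cyclins, rose by 0.77 ± 0.10 and 0.74 ± 0.13 on the log2 scale (SE; edgeR adjusted p = 0.0303 and 0.045), 2 of 9 genes where 1.77% of all genes rose. Both calls were lost without any single library other than EV control 1 (edgeR adjusted p up to 0.202). Ccnd2 was at 678.4, 716.2 and 747.0 CPM in EV control and 1118, 1211 and 1335 CPM in p27OE, with no overlap. Cdk2, whose kinase p27 inhibits, was at −0.52 ± 0.10 (edgeR adjusted p = 0.0518). Of 7 kinase inhibitor genes, only Cdkn1b, the introduced gene, rose in the fit with the group alone, where 1.77% of all genes did. Cdkn1a was at 0.69 ± 0.16 (SE; edgeR adjusted p = 0.0675), Cdkn2b at 0.60 ± 0.12 and Cdkn2a at 0.39 ± 0.08, all without passing. The other 3 lay below 0. With Cdkn1b counted, DESeq2 called 4 of the 7 higher and 1 lower, where 8.18% and 8.41% of all genes were. The Y-adjusted fit also called 4 higher and 1 lower, where 18.0% and 16.0% of all genes were.

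Genes of E2F protein turnover and of the E2F6 complex did not pass with the group alone. Of 5 turnover genes, 5 were at an unadjusted p under 0.05, as were 26.0% of all genes, and DESeq2 called 3 lower, as it did 8.41% of all genes: the log2 fold change was −0.85 for Ccnf, −0.77 for Fbxo5, −0.68 for Cdc20, −0.38 for Skp2 and −0.27 for Fzr1. Of 12 genes of the E2F6 polycomb complex PRC1.6, 6 lay above 0 and 6 below, with a median of −0.06. At an unadjusted p under 0.05 there were 4 of 12, near the 26.0% of all genes, and DESeq2 called 1 higher and 2 lower, where 8.18% and 8.41% of all genes were. Its subunit genes Cbx3 and Pcgf6 were at −0.55 ± 0.14 and −0.45 ± 0.12, and Max at 0.23 ± 0.06 (SE). Of 6 germline genes known to be kept silent through E2F6, 3 passed the filter on low counts: Stag3, Ddx4 and Smc1b. All were at or under 1.69 CPM in the group means, and 0 were called, beside 2.61% of all genes. At an unadjusted p under 0.05 there were 0, beside 26.0% of all genes. DESeq2 called 0, where 8.18% of all genes were called higher and 8.41% lower. With 3 genes at such low levels, these counts were no test of their repression. Of the proliferation genes, Top2a, Ccnb1 and Mki67 were at −1.04 ± 0.22, −0.99 ± 0.23 and −0.91 ± 0.24 without passing. All 3 were called lower by DESeq2 and in the Y-adjusted fit, where 8.41% and 16.0% of all genes were.

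**Figure D5:**
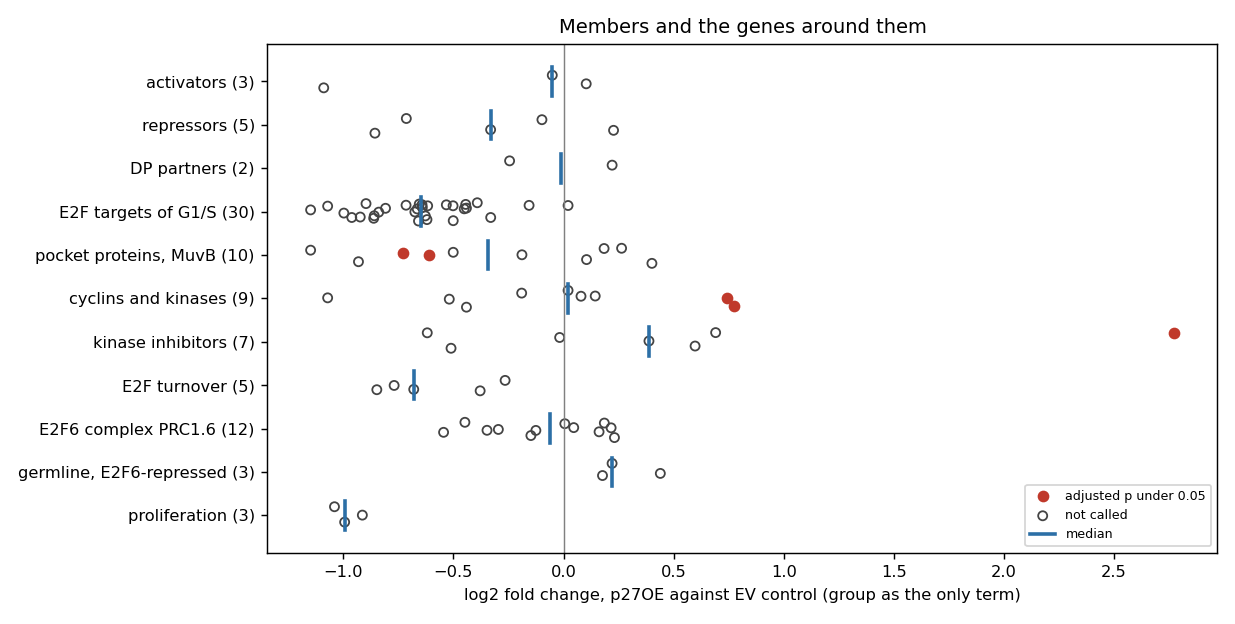
Log2 fold change, p27OE against EV control, of each tested gene (x axis) in the member classes and in the lists around them, with the number of genes in parentheses and the median as a bar. Filled points passed (edgeR adjusted p under 0.05): Lin9 and Lin54 below 0, and Ccnd1, Ccnd2 and Cdkn1b above. Of the 30 G1/S targets 29 lie below 0, while the activators E2f1 and E2f3 lie near it.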

How the data were processed

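The authors deposited raw read counts, in whole numbers, for each gene symbol in 6 libraries. Per the submitters' processing notes featureCounts 1.4.6 (with Subread named too), TopHat2 2.0.14 and Bowtie2 2.2.6 were used, and the build was mm10; annotation, strand setting and filters are not given in the sources used here. Libraries were made with a TruSeq RNA kit, per the labels' protocols.

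All 13990 genes kept by filterByExpr were fitted with edgeR 4.0.16 under R 4.3.3 (TMM, robust glmQLFit, glmQLFTest, two-sided), on the group alone, with Benjamini-Hochberg adjustment over all of them and calls at an adjusted p under 0.05. CPM used the TMM factors, and log2 CPM a prior count of 2. TPM used merged exons of GENCODE M21 (GRCm38, the assembly of mm10) for the 22711 symbols that matched 1 gene, holding 97.0% of counts. The fit was tested on simulated data of 13833 genes for this comparison. It recovered 26.9% of 1.5-fold, 76.1% of 2-fold and 95.5% of 4-fold changes, and 17 false genes were among 149 calls. The changed genes all had a mean above 4 CPM, and differences shared by many genes of a library were not simulated. Since separate cultures are not named, a p-value here measures only the spread between these samples, which may in part be technical. That spread was uneven. Chi-square per gene between libraries of a group was 6.49 for EV control 2 and 3, and 55.5 to 188 for every other pair. The controls thus held 2 libraries close to each other and EV control 1 far from both. No library repeated another within sampling noise.

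The members, the 8 gene lists, the 6 marker lists and the alternatives, the Y-linked term among them, were chosen with earlier results of these data known. Named genes are the members, Cdkn1b, Mki67, the 3 genes of each list with the smallest p (all of a list of 5 or fewer), and the 3 nearest in pattern to E2f1 and to E2f8. Ccne1, Rb1, Rbl1, Rbl2 and Cdkn1a were named after their values were seen. Alternatives were other scalings (RLE, upper quartile, total counts), filters, DESeq2 1.42.0, limma-voom (limma 3.58.1), a block for the replicate number, omission of Cdkn1b, libraries left out, a term for the Y-linked level (Y-adjusted: summed CPM of the 4 genes as a share of the highest library), and the longest transcript as a gene's length.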

Additional observations from a re-analysis of the deposited data

How the results depend on the processing

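The 365 genes called, and the 0 members among them, became 2321 and 1 with DESeq2, 4761 and 5 in the Y-adjusted fit, and 2334 and 3 without both libraries numbered 1. Leaving out 1 library gave 1 to 1827 genes and 0 to 3 members, the highest without EV control 1 (E2f4, E2f8 and Tfdp1). With the replicate number as a block, 2410 genes and 3 members passed (E2f2, E2f4 and E2f8). The pairing check gave correlations of deviations across genes of 0.67, 0.04 and 0.50 for same-numbered libraries, while EV control 2 was closest to p27OE 3 (0.56); pairs were therefore not assumed. Other scalings, filters, limma-voom and omission of Cdkn1b called 0 members and 313 to 497 genes. No member or other named gene that was called changed direction under any of these settings. With the longest transcript as length, control levels were 45.0 TPM for E2f1, 22.1 for E2f3, 16.7 for E2f5, 44.4 for E2f6, 13.4 for E2f7 and 9.47 for Tfdp2. The cause of these differences was not tested. E2f2 rests on 19 to 100 counts per library. In simulation, changes of 1.5-fold were mostly missed among genes with a mean above 4 CPM, a range that leaves out E2f2.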
